A study of Mus musculus with 462 samples.

Results

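The linc1329 polyadenylation signal insertion clones are 5 clonal lines of mouse embryonic stem cells whose titles begin with linc1329-pAS. They share a single date label in their titles and were chosen by title alone, out of 462 samples in the series, 439 of which have count files. Each library is poly(A)+ RNA sequenced after hybrid selection, in which probes pull down a chosen set of transcripts. The cells are 129/Castaneus F1 hybrids labelled F1 2-1 and female, grown in 2i/LIF medium, so that reads over sequence differences can be assigned to an allele, and the series asks whether changing a lncRNA locus alters genes within 1 Mb on the same chromosome copy.

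No unmodified Control clone shares that date label. The reference was therefore the 17 clones of the same date with the same kind of insertion at other loci, namely 7 Gpr19-pAS, 6 Slc30a9-pAS and 4 linc2025-pAS clones. These are modified lines too, so that a change shared by all clones with an insertion cannot be seen. At the same locus, 5 Snhg17-PromoterDeletion clones of the date label 150126 were compared with 77 Control clones of that date. Each library is a separate clone, labelled as coming from a single parental line. The labels say neither which allele carries the insertion nor where in linc1329 it lies. The p-values therefore measure the spread between clones, count noise included.

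A polyadenylation signal directs cleavage of the nascent transcript and addition of its poly(A) tail, after which RNA polymerase II terminates. Inserting such a signal near the start of a lncRNA gene is a way to shorten its transcript while leaving the promoter in place. Deleting the promoter instead removes the start site together with the DNA around it. When a locus acts in cis, genes on the modified chromosome copy change while those on the other copy do not.

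The files list linc1329 on chromosome 2 at chr2:158179087-158187280 (mm9). In the RefSeq gene order this place, between Lbp and Snhg11, is taken by the lncRNA gene Snhg17, a host gene of small nucleolar RNAs. The next captured row is Snhg11, another small nucleolar RNA host gene, which starts 14.094 kb beyond the end of the linc1329 row. RefSeq places Snhg17 on the minus strand and Snhg11 on the plus strand, so that their starts, 14.191 kb apart in GRCm38.p6, face away from each other. Both promoters are shown because the results turn on the transcripts that start there. Lower case marks the 250 bases before the RefSeq start and capitals the first 50 transcribed bases, on the gene's own strand.

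Snhg17 promoter, chr2:158361473-158361772 (GRCm38.p6), minus strand: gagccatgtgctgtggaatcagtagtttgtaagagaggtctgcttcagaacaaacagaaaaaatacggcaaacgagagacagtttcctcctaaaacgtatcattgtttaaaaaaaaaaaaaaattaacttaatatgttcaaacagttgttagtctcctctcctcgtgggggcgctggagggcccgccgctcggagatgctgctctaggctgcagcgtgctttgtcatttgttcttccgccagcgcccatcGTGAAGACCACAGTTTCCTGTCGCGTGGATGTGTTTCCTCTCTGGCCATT

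Snhg11 promoter, chr2:158375463-158375762 (GRCm38.p6), plus strand: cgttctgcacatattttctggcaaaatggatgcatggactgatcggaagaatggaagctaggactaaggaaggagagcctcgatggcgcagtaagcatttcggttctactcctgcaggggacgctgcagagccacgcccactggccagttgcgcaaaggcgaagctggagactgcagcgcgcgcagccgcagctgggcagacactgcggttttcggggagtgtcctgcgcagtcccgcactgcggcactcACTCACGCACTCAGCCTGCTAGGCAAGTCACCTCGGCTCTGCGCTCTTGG

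RefSeq lists 2 starts for Snhg17, of which the first listed is printed. The Snhg17 window holds 14 CpG dinucleotides and the Snhg11 window 21, against a median of 7 over the 32851 promoters of the RefSeq table. Searched on both strands, the TATA box letters TATAAA occur in neither window and in 13.6% of all promoters in the table. The GC box letters GGGCGG, found in 35.7% of them, and the CCAAT box, found in 37.4%, are also in neither window.

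Counts assigned to an allele summed to between 71958 and 378556 in the linc1329-pAS clones (median 272280) and to between 84982 and 720485 in the reference clones (median 484043). The shallowest linc1329-pAS library was clone 5. None of the 34 markers listed for embryonic stem cells and their derivatives is among the captured rows, so the labelled cell type could not be checked. Chromosome X counts were 50.2% to 52.1% from the first allele column in the linc1329-pAS clones and 48.96% to 55.6% in 15 reference clones. The other reference clones stood apart, with 1.47% in Slc30a9-pAS clone 6 and 7.18% in linc2025-pAS clone 2, and results that rest on them are also given without them. In Control clones of the date label 150126 the share was 98.6% to 99.8%, and in the Snhg17-PromoterDeletion clones 99.5% to 99.6%, all under the same female label. Control clones of the date label 150416 had 51.6% to 54.2%, so that a pool of both Control dates mixes even and uneven chromosome X. The growth protocol in the labels speaks of male cells.

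The linc1329 RNA was higher, not lower, in the linc1329-pAS clones, and nearly all of it came from a single allele. Levels are given as CPM, allele-assigned counts scaled to a library sum of 1000000. The linc1329 row had 4986 CPM in clone 1, 3373 in clone 2, 6295 in clone 3, 1300 in clone 4 and 4461 in clone 5. The reference clones lay between 1020 and 1467 CPM with a median of 1283. Clones 1, 2, 3 and 5 were above all reference clones, and clone 4 was within their range. In bulk RNA, more expressing cells and more RNA per cell cannot be told apart. Over the 186 libraries with this transcript list that carry neither modification of the locus, the highest value was 2989 CPM.

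By edgeR's quasi-likelihood test with Benjamini-Hochberg adjustment over 454 rows, total linc1329 counts rose by a log2 fold change of 1.69 ± 0.16 (SE), with adjusted p = 3.5e-08. In this comparison 10.1% of all rows tested were called, and linc1329 had the smallest p. Without clone 4 the log2 fold change was 1.92. With all 86 Control clones of the date labels 150126 and 150416 in place of the reference it was 1.05, past the threshold there too.

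The allele columns show how each clone came to its total. Clone 1 had 802 counts in the first column and 6 in the second, clone 2 had 957 and 11, and clone 3 had 2368 and 15. In clone 4 the sides were exchanged, with 8 counts in the first column and 346 in the second. Clone 5 had 291 and 30. The deposited files name the columns only by position, so that the strain behind each is not given here.

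**Figure D1:**
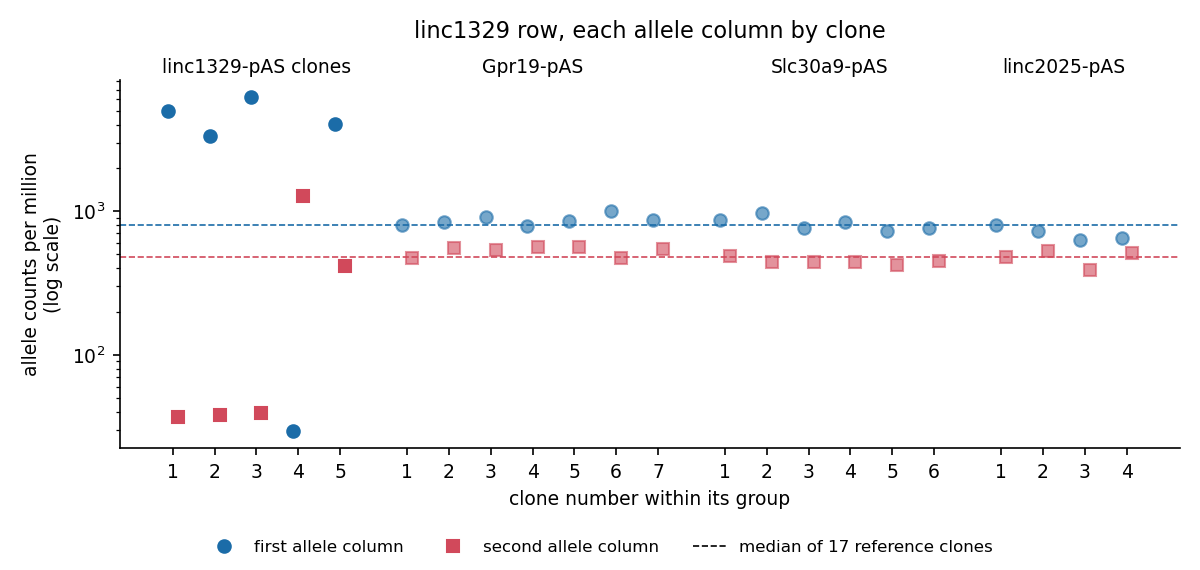
CPM of each allele column of the linc1329 row on a log scale, for each linc1329-pAS clone and each of the 17 reference clones; circles are the first allele column, squares the second, and dashed lines the reference medians. The second column is near 40 CPM in clones 1 to 3 and the first is 29.4 CPM in clone 4, whereas the other column is raised, and clone 5 has a raised first column with its second column among the reference values.

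In clones 1, 2 and 3 the second column stood at 0.0768, 0.0795 and 0.0822 times its reference median of 482 CPM. The first column of those clones was 6.18, 4.16 and 7.81 times its own reference median of 801 CPM. In clone 4 the first column was at 0.0367 and the second at 2.64 times the reference median. In clone 5 the first column was 5.05 times the reference median, and the second, at 417 CPM, lay within the reference range of 388 to 562 CPM. All 5 clones thus had a raised column, and 4 of them also had a column below every reference clone.

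The log2 ratio of the first to the second column was 6.95, 6.38, 7.26, -5.35 and 3.26 in clones 1 to 5, against 0.34 to 1.12 in the reference clones. Since the side can differ between clones, the test compared the absolute deviation of this ratio from the median of all 22 clones. The deviation was 5.38 ± 1.64 (SD, n = 5) against 0.14 ± 0.14 (SD, n = 17). The exact two-sided permutation test gave p = 3.8e-05, the smallest that the 26334 splits of these clones allow, with a Benjamini-Hochberg adjusted p of 0.0151. The same test called 0.503% of the 398 rows with enough allele counts, and linc1329 had the largest deviation of them.

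Leaving out clones 1, 3 or 4 took the adjusted p to 0.0665, 0.063 and 0.0648, although the exact permutation p was again the smallest possible with 5985 splits.

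Total Snhg11 did not pass the test against the reference clones of its own date, while its allele ratio was above every reference clone in 4 of the 5 clones. Its total was 3005, 3254, 3886, 4106 and 2501 CPM in clones 1 to 5, and 907.98 to 5116 CPM in the reference clones, with a median of 3519. The insertion clones lay inside the reference range, and the log2 fold change was -0.04 ± 0.21 (SE), with adjusted p = 0.895 by edgeR with Benjamini-Hochberg adjustment. Against the 86 Control clones, which carry other date labels, it was 2.29 and past the threshold, with edgeR adjusted p = 8.11e-10. That fit called many more rows than the fit against the reference clones.

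Snhg11 allele counts were 393 in the first column and 94 in the second in clone 1. They were 760 and 174 in clone 2, 1133 and 338 in clone 3, 782 and 336 in clone 4, and 108 and 72 in clone 5. The log2 ratios were 2.06, 2.12, 1.74, 1.22 and 0.58, against 0.27 to 0.79 in the reference clones. Clones 1 to 4 lay above every reference clone and clone 5 lay within their range. All 4 leaned to the first column, including clone 4, whose linc1329 RNA came from the second.

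The Snhg11 deviation was 0.95 ± 0.63 (SD, n = 5) against 0.12 ± 0.09 (SD, n = 17), with an exact two-sided permutation p of 0.000646 and a Benjamini-Hochberg adjusted p of 0.0579, which misses the threshold of 0.05. It was past the threshold without clone 5 (adjusted p = 0.0332, exact permutation), with fractions in place of log ratios (0.0489) and with the Control clones as reference (0.0021). With the Control clones the test called many more rows than with the main reference. Among all rows, 10.8% had an unadjusted p under 0.05 in this test, each with the larger deviation in the insertion clones. The insertion libraries were shallower by median, and the part of depth in these deviations was not tested.

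**Figure D2:**
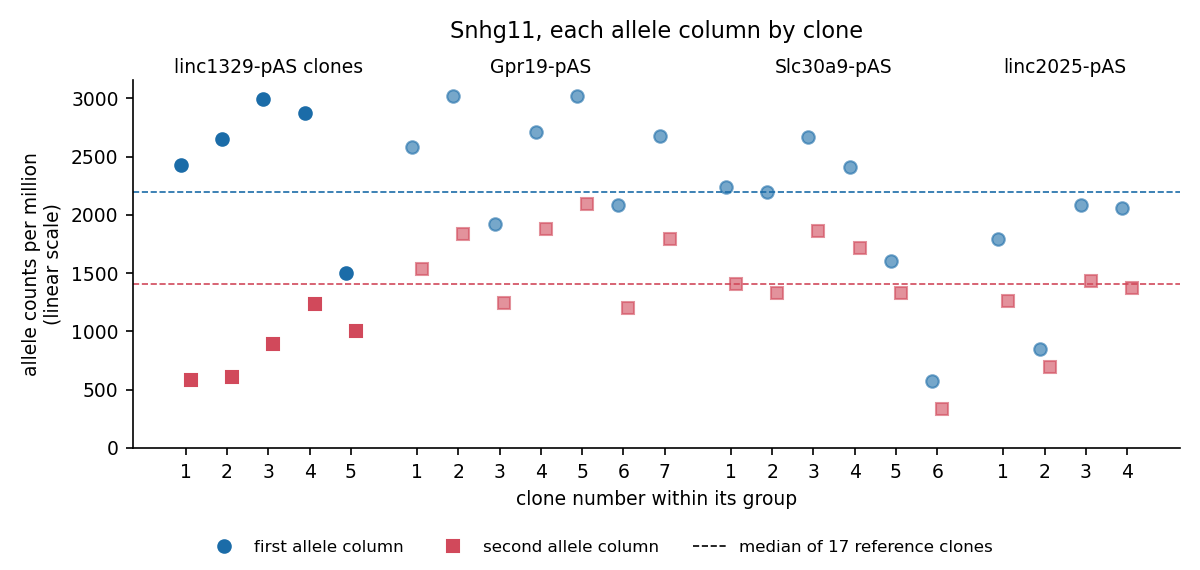
CPM of each allele column of Snhg11 on a linear scale, for each linc1329-pAS clone and each of the 17 reference clones; circles are the first allele column, squares the second, and dashed lines the reference medians. The second column is 580, 606 and 893 CPM in clones 1 to 3, below the reference median of 1406 CPM, and Slc30a9-pAS clone 6 and linc2025-pAS clone 2 are low in both columns.

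A fit of each column alone, chosen after the ratios had been seen, gave a call for Snhg11 in the second column and none in the first. In the second column Snhg11 fell by 0.71 on the log2 scale (SE 0.22), with adjusted p = 0.047 by edgeR with Benjamini-Hochberg adjustment, in a fit that called 8.62% of 406 rows. In the first column, where the fit called 8.19% of 415 rows, its log2 fold change was 0.27 ± 0.21 (SE), with edgeR adjusted p = 0.505. Second-column levels were 580, 606, 893, 1234 and 1001 CPM in clones 1 to 5. The lowest of the 15 reference clones with an even chromosome X was 1203 CPM, so that clones 1, 2, 3 and 5 were below all of them. Against those 15 clones the log2 fold change was -0.80, with edgeR adjusted p = 0.00198. The clones left out there, Slc30a9-pAS clone 6 and linc2025-pAS clone 2, were the lowest reference clones in this column, at 332 and 694 CPM. Leaving them out was chosen after the data had been seen. With all 17 reference clones, leaving out insertion clone 1, 2, 3 or 5 gave edgeR adjusted p of 0.13, 0.117, 0.0904 and 0.0568.

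**Figure D3:**
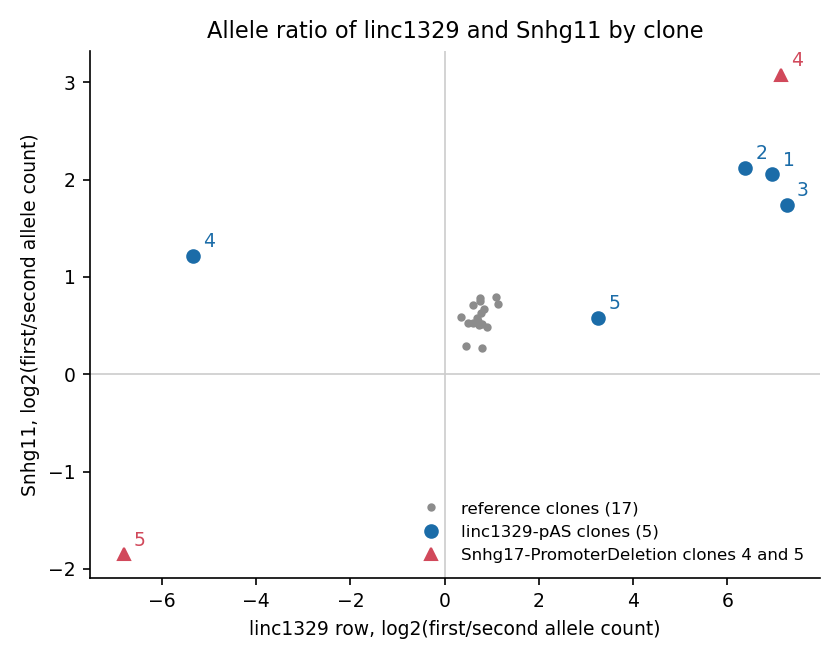
Log2 ratio of first to second allele counts of the linc1329 row (horizontal) and of Snhg11 (vertical), 1 point per clone. Reference clones form a tight group; linc1329-pAS clones 1 to 3 are at the upper right, clone 4 at the upper left with ratios of -5.35 and 1.22, and Snhg17-PromoterDeletion clones 4 and 5 lie at opposite corners.

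Besides linc1329, 26 captured rows lie within 1 Mb, of which 17 had enough counts for the test of totals and 14 for the test of allele ratio. None passed either test, where 10.1% of all rows were called by total count and 0.503% by allele ratio. By total count 3 had an unadjusted p under 0.05 by edgeR, and DESeq2 called 1, Blcap. By allele ratio 2 had an unadjusted p under 0.05, Snhg11 and Manbal. Manbal's log2 ratios were 0.55 to 0.82 in the insertion clones and 0.74 to 1.23 in the reference clones. Its ratio left the reference range in 3 clones, as did that of Actr5, and that of D630003M21Rik in 2 of 3 clones. Besides these rows and Snhg11, none had more than 1 such clone. Over all rows tested, 29.5% had an unadjusted p under 0.05 by total count and 10.8% by allele ratio. The 17 rows had a median log2 fold change of -0.04, beside -0.05 over all 454 rows. All 17 overlapped between the groups, as did all but 1.76% of the 454 rows.

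Lbp, which encodes the lipopolysaccharide-binding protein and ends 20.499 kb before linc1329, was detected at 26 to 63 CPM in the insertion clones and at 0 to 120 CPM in the reference clones. Its log2 fold change was -0.40 ± 0.40 (SE), with edgeR adjusted p = 0.512. On the other side, Ralgapb, a subunit of the Ral GTPase-activating complex, starts 48.309 kb after linc1329. It had 945 to 1374 CPM against 912 to 1436 CPM, with a log2 fold change of 0.04 ± 0.08 (SE).

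D630003M21Rik, 124.127 kb before linc1329, was measured at 73 to 85 CPM in the 5 clones and 20 to 259 CPM in the reference clones. Its log2 fold change of -0.70 ± 0.29 (SE) missed the threshold, with adjusted p = 0.117 by edgeR. Leaving out the reference clones with an uneven chromosome X moved it past the threshold, with a log2 fold change of -0.77 and adjusted p = 0.0341. Against the Control clones the sign turned, to 0.77 with edgeR adjusted p = 0.0379. In the second column alone it fell by 1.48 on the log2 scale, with edgeR adjusted p = 0.0291, from counts of 2, 6, 8, 8 and 0 in clones 1 to 5, which are too low for a stable ratio. That call was lost without clone 1, 2, 3 or 5 (adjusted p 0.0532 to 0.0811 by edgeR).

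Blcap, an apoptosis-related gene of an imprinted pair with Nnat, lies 786.99 kb before linc1329. It had 105, 188, 211, 224 and 195 CPM in clones 1 to 5 and 96 to 271 CPM in the reference clones. The log2 fold change was 0.49 ± 0.19 (SE), with adjusted p = 0.0996 by edgeR, and it passed with DESeq2 (adjusted p = 0.0375) and without clone 1 (edgeR adjusted p = 0.0463). Blcap also passed without the linc2025-pAS clones (edgeR adjusted p = 0.0186) and without the reference clones with an uneven chromosome X (0.0267). With clone 5 left out as well the value was 0.0318. It did not pass against the Control clones (0.221) or without the Gpr19-pAS clones (0.374), also by edgeR. Nnat itself had no count in any of the 5 clones.

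Of the remaining rows, Tti1, which encodes a subunit of a PIKK-stabilising complex, had a log2 fold change of 0.17 ± 0.08 (SE) with edgeR adjusted p = 0.162. Against the 15 reference clones with an even chromosome X its log2 fold change was 0.22, with adjusted p = 0.0252. Rprd1b, a regulator of the RNA polymerase II C-terminal domain, and 2010009K17Rik overlap and share most counts, and both were 0.15 ± 0.08 (SE). Both passed without the linc2025-pAS clones, with adjusted p of 0.0331 and 0.0385 by edgeR.

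Src, a tyrosine kinase gene, Manbal and linc1327 were at -0.20 ± 0.16, -0.15 ± 0.09 and -0.10 ± 0.28 (log2 fold change ± SE). Against the Control clones Manbal was at -1.09 and Src at -0.66, both past the threshold, with edgeR adjusted p of 1.56e-07 and 1.19e-05. Tti1, Rprd1b, 2010009K17Rik and Dhx35 also passed with that reference, which called 243 rows in all, at log2 fold changes of 0.39, 0.26, 0.25 and -0.22. Tgm2, a transglutaminase gene, stood at -0.17 ± 0.26. Actr5, a subunit of the INO80 chromatin remodeller, Fam83d, a spindle protein gene, and the helicase gene Dhx35 had log2 fold changes of 0.02, 0.02 and 0.03. Arhgap40 and Ppp1r16b, at 0 to 37 and 5 to 42 CPM, were too low for a narrow estimate, with SE of 0.61 and 0.51. The other 9 rows, among them Nnat, Bpi, Adig and Slc32a1, had under 10 counts in every insertion clone, so a change was not detectable at this depth.

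**Figure D4:**
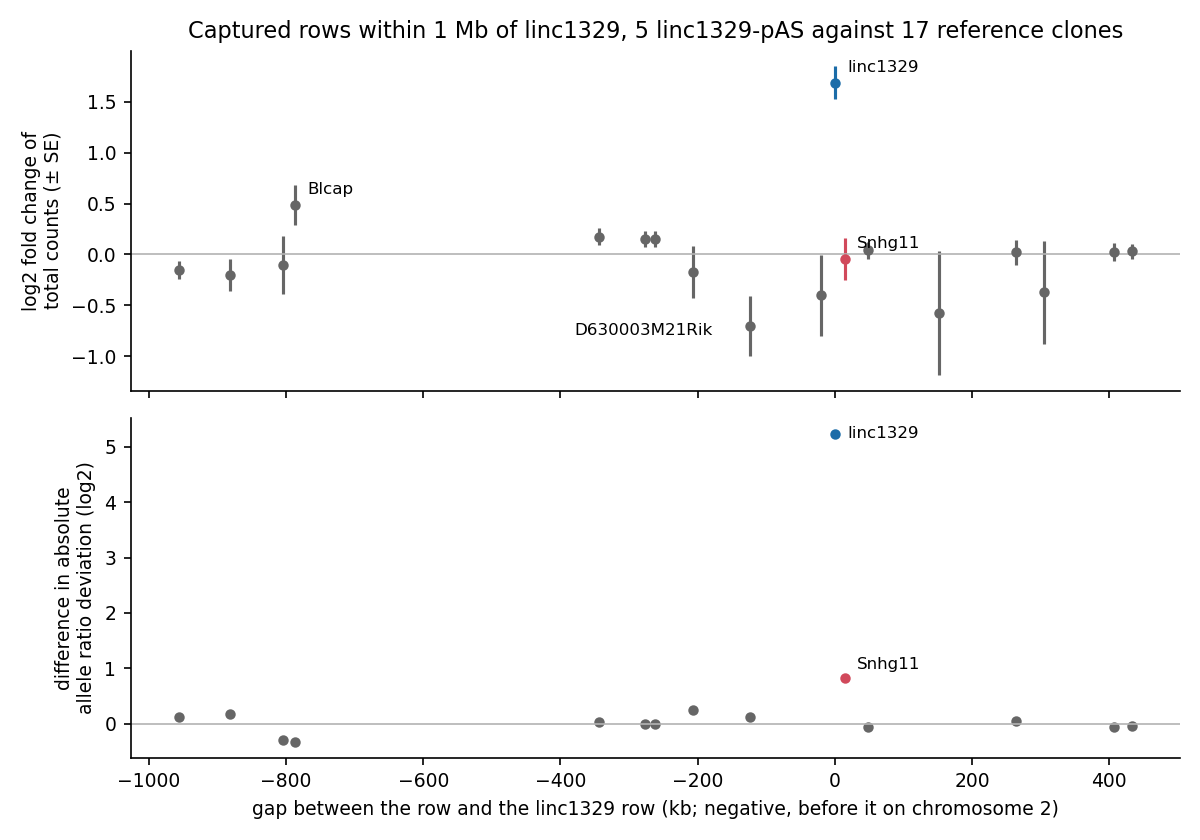
Captured rows within 1 Mb by their gap to the linc1329 row in kb; the upper panel gives the log2 fold change of total counts with its SE and the lower panel the difference in mean absolute deviation of the allele ratio, for 5 linc1329-pAS against 17 reference clones. The linc1329 row stands apart in both panels, at 1.69 and 5.24, and Snhg11 is at -0.04 in the upper and 0.83 in the lower panel.

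In the promoter deletion clones of the same locus, linc1329 RNA was lower, not higher, except that clone 4 lay inside the Control range. In Snhg17-PromoterDeletion clones 1, 2 and 3 the linc1329 row had 4.36, 2.27 and 7.65 CPM, against 1395 to 2369 CPM in the 77 Control clones. The totals of clones 4 and 5 were 1575 and 1055 CPM. Clone 4 had 1196 counts in the first column and 8 in the second, and clone 5 had 4 and 506. The higher column stood at 1.41 times the Control median in clone 4 and at 1.48 times in clone 5. In the insertion clones the raised column was 2.64 to 7.81 times its reference median; the difference between these column folds was not tested.

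Total linc1329 counts fell by 1.79 on the log2 scale in the deletion clones (SE 0.38), with edgeR adjusted p = 0.0016, in a fit that called 29.5% of 471 rows. The log2 fold change was -1.46 without deletion clone 1, 2 or 3, -2.79 without clone 4 and -2.18 without clone 5, past the threshold each time. The difference between both modifications, each against its own date's clones, was a log2 value of 3.53 ± 0.47 (SE), with adjusted p = 1.06e-08 by edgeR with Benjamini-Hochberg adjustment. That contrast called 3.81% of 472 rows. Since each modification has its own date label, the dates and the modifications cannot be told apart beyond this subtraction.

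Snhg11 also fell in the deletion clones. Its totals were 79.9, 72.5, 137, 400 and 221 CPM in deletion clones 1 to 5, and 107 to 1795 CPM with a median of 451 in the Control clones. The log2 fold change was -1.42 ± 0.33 (SE), with edgeR adjusted p = 0.00259. Other rows within 1 Mb were also called lower there, in the fit that called 29.5% of all 471 rows. D630003M21Rik was at -1.19 ± 0.33 (SE), Tgm2 at -1.73 ± 0.59 and Manbal at -0.44 ± 0.15, with edgeR adjusted p of 0.00745, 0.0246 and 0.0246. Tgm2 lost the call without clone 1, 2, 3 or 4, and Manbal without any of the 5 clones (adjusted p 0.0502 to 0.0682). Slc32a1, also called, had 4 counts in clone 1 and 0 in the others, against a median of 14 in the Control clones. The difference of Snhg11 from the insertion clones was 1.43 ± 0.40 (SE) on the log2 scale, with adjusted p = 0.0213 by edgeR. That call was lost without any of insertion clones 1, 2, 3 or 4 (adjusted p 0.0525 to 0.0772), without any of deletion clones 1, 2 or 3 (0.0657 to 0.111) and with library size alone (0.055).

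In deletion clones 4 and 5 the Snhg11 counts were 274 and 32, and 23 and 84, on the side of the remaining linc1329 column in both. Over all 5 deletion clones the deviation of the Snhg11 ratio was 1.43 against 0.26 in the Control clones, with adjusted p = 0.0128 by permutation with 100000 resamples, a test that called 0.937% of 427 rows. Deletion clones 1, 2 and 3, with few linc1329 counts in either column, entered that test too. Their Snhg11 log2 ratios were -0.05, -0.71 and 0.78, against -0.06 to 1.61 in the Control clones, so that clone 2 was also outside that range. Without clone 4 or 5 the adjusted p was 0.118 and 0.119. In the insertion clones the Snhg11 ratio leaned to the side of the raised linc1329 column in clones 1 to 3 and to the other side in clone 4. The Snhg11 level itself differed between dates among unmodified clones, with medians of 451 CPM for 150126 and 1797 CPM for 150416, beside 3519 CPM in the reference clones of the insertion date. The part of the date in the difference between the modifications was not tested.

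By total count 46 rows differed in all, linc1329 and 45 rows outside the window. Of them 28 were higher, or 6.17% of the 454 tested, and 18 were lower, or 3.96%. Most of these calls depended on which clones formed the reference. Without the Gpr19-pAS clones 5 calls were left, all of them among the 46, namely linc1329, Cd59a, Actg1, Hnrnpa1 and Gm10052. Without the linc2025-pAS clones there were 107. Leaving out the reference clones with an uneven chromosome X gave 86 calls, which included all 46. Leaving out clone 3 or clone 4 of the insertion clones gave 24 and 22. Rows within 1 Mb of the reference groups' own targets, 3 of the calls, were left out of the ranking below; Gpr19, itself a reference target, was at 0.34 ± 0.10 (SE).

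Cd59a, an inhibitor of complement lysis at the cell surface, had the largest increase. Its levels were 543, 470, 505, 757 and 625.4 CPM in clones 1 to 5, and 188 to 508 CPM in the reference clones, a log2 fold change of 0.90 ± 0.15 (SE) with edgeR adjusted p = 0.000686. Suz12, a core subunit of Polycomb repressive complex PRC2, had 364, 463, 483, 444 and 445 CPM against 165 to 417 CPM. Its log2 fold change was 0.84 ± 0.18 (SE), with edgeR adjusted p of 0.00496, and 0.62 with adjusted p = 0.0993 without the Gpr19-pAS clones.

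Hnrnpa1, which encodes a splicing regulator, had 1777, 1435, 1625, 1337 and 1390 CPM, and the reference clones 626 to 1336 CPM. All 5 clones were above the reference, the nearest by about 1 CPM, and the log2 fold change was 0.76 ± 0.16 (SE) with edgeR adjusted p = 0.00466. Gm10052 overlaps Hnrnpa1 in the list and shares its counts, so its value of 0.77 is not separate. The cytoskeletal actin gene Actg1 had 1722, 1854, 1794, 2093 and 2196 CPM, also above all reference clones (762 to 1710 CPM), at 0.76 ± 0.16 (SE). Pla2g4c, a phospholipase gene, had 556 to 840 CPM against 212 to 720 CPM and a log2 fold change of 0.60 ± 0.16 (SE). It did not pass without clone 3 (edgeR adjusted p = 0.0718) or without the Gpr19-pAS clones (0.108).

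Of the rows that fell, Krt18, an epithelial keratin gene, had the largest decrease, at -1.40 ± 0.35 (SE) with edgeR adjusted p = 0.0126, from only 4, 16, 2, 8 and 2 counts. Without clone 3 its log2 fold change was -1.02 with adjusted p = 0.062. Arc, which encodes an activity-regulated cytoskeletal protein, had 1987, 2261, 2039, 1432 and 2251 CPM, below all reference clones (2497 to 4940 CPM), at -0.60 ± 0.13 (SE) with edgeR adjusted p = 0.00466. Without the Gpr19-pAS clones it was -0.62 with adjusted p = 0.0577. Across all rows tested, 1.76% did not overlap between the groups.

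Myc, a growth-promoting transcription factor gene, had 568, 523, 293, 231 and 556 CPM against 371 to 998 CPM, a log2 fold change of -0.63 ± 0.19 (SE) with edgeR adjusted p = 0.0371. Clones 3 and 4 carried it, since the edgeR adjusted p was 0.147 without clone 3 and 0.151 without clone 4. In clone 4 the Myc counts were 62 in the first column and 1 in the second. Tspo, a mitochondrial outer membrane protein gene, was at -0.61 ± 0.18 (SE), and lost the call without clone 1, 3, 4 or 5 (edgeR adjusted p 0.0518 to 0.0858). Ccdc57 at -0.62 ± 0.20 (SE) and Sharpin, a subunit of the linear ubiquitin ligase complex, at -0.46 ± 0.14 (SE) each lost it without clone 2, 3 or 4 (0.0575 to 0.171). All 6 named decreases lost the call without the Gpr19-pAS clones. Against the Control clones Krt18, Arc and Sharpin did not pass either, with edgeR adjusted p of 0.242, 0.192 and 0.228.

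**Figure D5:**
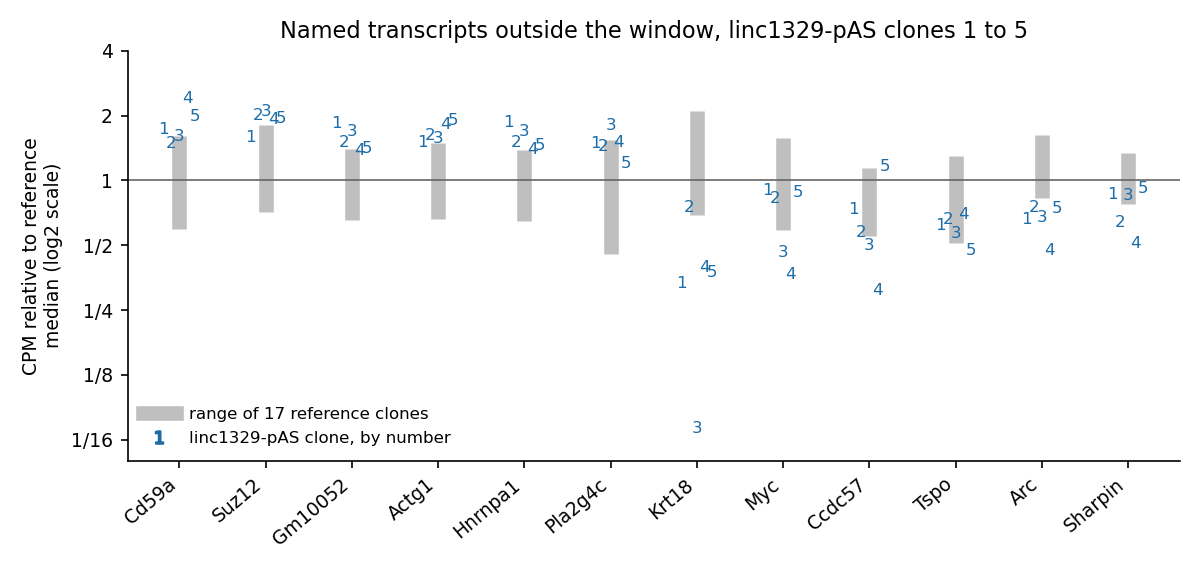
CPM of the named rows outside the window relative to the reference median, on a log2 scale; numerals are the 5 linc1329-pAS clones and grey bars the range of the 17 reference clones. All 5 clones are above the bar for Hnrnpa1 and Actg1 and below it for Arc, and clone 3 is the lowest for Krt18.

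By allele ratio, Hnrnph1, a splicing regulator gene on chromosome 11, was the other row called beside linc1329. Its counts were 385 and 361, 813 and 818, 994 and 966, 858 and 865, and 68 and 292 in clones 1 to 5, which give log2 ratios between -0.01 and 0.09 in the first 4 clones and -2.09 in clone 5. The reference clones lay between -0.39 and -0.03. The deviation was 0.55 ± 0.77 (SD, n = 5) against 0.07 ± 0.06 (SD, n = 17), with adjusted p = 0.0378 by the exact permutation test. Without clone 5 the difference in deviation went from 0.47 to 0.11 and the adjusted p to 0.186. The call was also lost without clone 1, 3 or 4, with adjusted p of 0.133, 0.0756 and 0.0648 by the exact test.

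The lists of gene groups met few captured rows, where 10.1% of all 454 rows were called by total count. Of 21 small nucleolar RNA host genes 4 were captured, and only linc1329, the modified target itself, was called. Snhg3 and Snhg12 were tested and not called. The 4 rows, linc1329 among them, had a median log2 fold change of 0.06, beside -0.05 over all rows. Of 12 Polycomb and chromatin genes 2 were captured, Suz12 and Chd2, and Suz12 rose. None of the 3 captured stress and growth arrest genes, Cdkn1b, Bhlhe40 and Slc16a3, was called; their median was -0.28. Of the imprinted RNAs, Nnat and Blcap were captured and Blcap was tested. Snhg11 was the captured member of the neural and neural crest list. No gene of the naive pluripotency, mesendoderm, Hox, trophectoderm or feeder cell lists was captured.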

How the data were processed

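The files hold whole-number counts per transcript in 2 allele columns, deposited by the authors, in mm9 according to the submitters' processing notes. No source used here gives the aligner or the counter. Of values from 1 to 19, 87.6% were even, so counts may hold both mates of a read pair. Of 692 rows 691 were used, with Tsix|linc2092 left out, and 667 names matched the name tables. Totals are the sum of both columns. CPM is counts divided by the library's sum, times 1000000. No library pair of this date agreed within sampling noise (lowest chi-square per degree of freedom 3.83 over 231 pairs).

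Totals were tested with edgeR 4.0.16 (R 4.3.3; quasi-likelihood F test, TMM, mean count of at least 10, Benjamini-Hochberg, threshold 0.05). Allele ratios, log2 of both columns with 0.5 added, needed 20 counts in at least 2 modified and 5 reference clones, and their absolute distance from the median of both groups, averaged per group, was tested by exact permutation (Python 3.11.15, NumPy 2.4.6), or 100000 resamples with Control clones. Both were also run on simulated counts drawn without the excess of even values, and no result given here rests on those runs. Alternatives were other references, DESeq2 1.42.0, scaling by library size, all rows unfiltered, clones left out, other ratio measures and each column alone, the last added after seeing the data, as was leaving out the clones with an uneven chromosome X.

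Named rows are linc1329, all within 1 Mb, outside it the 6 increases and 6 decreases called with the largest log2 fold change, rows called by allele ratio, and called list members. Members and lists were chosen with earlier results of these data known. Intervals cover clone spread only.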

Additional observations from a re-analysis of the deposited data

Results flagged for a closer look

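Among 64 sets of values, 5 held a clone far from the rest of its group, where chance flags about 1 in 20 sets. In linc1329-pAS clone 5, the shallowest library, Src had 806 CPM against 1086 to 1167 CPM in the others, and Slc30a9 had a log2 allele ratio of -0.77 against -0.08 to 0.00. The ratio of Hnrnph1 in that clone was -2.09 against -0.01 to 0.09. In clone 4, linc1327 had 11.02 CPM, from 3 counts, against 83.4 to 105 CPM in the others.

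The log2 allele ratio of Myc was 5.38 in clone 4, from 62 counts in the first column and 1 in the second, against -0.87 to 0.12 in the other clones. Pvt1|linc1476, the neighbouring lncRNA row on chromosome 15, had 207 and 5 counts in clone 4. Its total there was 779 CPM, against 1401 to 1668 CPM in the other linc1329-pAS clones.

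The insertion and the promoter deletion differed by a test of the difference itself at linc1329, with a log2 value of 3.53, and at Snhg11, with 1.43. The cause was not tested.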

How the results depend on the processing

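No paired analysis was possible because the labels give the clones well names and no replicate numbers shared between groups. The rise of total linc1329 held under all alternatives run, between 1.05 and 1.92 on the log2 scale. The count of rows called by total, 46, became 76 with DESeq2, 243 with Control clones, 5 without Gpr19-pAS, 107 without linc2025-pAS, 86 without the clones with an uneven chromosome X, 84 when clone 5 was left out as well, and 22 to 41 without 1 clone. The count called by allele ratio, 2, became 75 with Control clones, 0 without Gpr19-pAS or Slc30a9-pAS, 5 without the uneven clones, 6 with allele fractions, 1 relative to the rest of the chromosome, 0 with the signed ratio, and 0 to 2 without 1 clone.

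The allele deviation of linc1329 missed the threshold without Gpr19-pAS (5.22), without Slc30a9-pAS (5.27) and with the signed ratio (2.97), and ranged from 4.96 to 5.96 without 1 clone. Fewer splits raise the smallest p that the permutation allows. Snhg11's deviation passed with Control clones (0.64), without clone 5 and the uneven clones (1.05) and with fractions (0.12), and ranged from 0.70 to 1.03 without 1 clone. With Control clones, which differ in date, the sign of these values turned: total Snhg11 (2.29), D630003M21Rik (0.77), Dhx35 (-0.22) and Gpr19 (-0.79), and the allele deviation of Rprd1b (0.13), 2010009K17Rik (0.13) and Fam83d (0.11). Hnrnph1 turned with the signed ratio (-0.22). The cause was not tested.

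Of 17 local rows tested by total in the main setting 0 were called, beside 10.1% of all rows. Local calls became 1 with DESeq2, 9 with Control clones, 3 without linc2025-pAS and 3 without the uneven clones. They were 2 without clone 5 as well, and 0 to 1 without 1 clone. All of these settings but the last also called more rows in all than the main setting, as counted above. Of 14 local rows tested by allele ratio in the main setting 0 were called, beside 0.503% of all rows. Local calls by allele ratio became 5 with Control clones, 1 without clone 5 and the uneven clones, 1 with fractions, and 0 to 1 without 1 clone. With Control clones and with fractions more rows were called in all too. In the deletion clones, 139 calls by total became 79 to 95 without 1 clone, and 4 by allele ratio became 0 to 4. The difference between modifications, 18 calls, became 29 with DESeq2 and 6 to 20 without 1 clone. The first column alone gave 34 calls, 68 without the uneven clones and 15 to 32 without 1 clone; the second gave 35, and 19 to 32.

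Depth limits the local rows with under 10 counts and every ratio of clone 5, the library of 71958 counts. Of the other single-row values under the alternatives, 1266 kept their direction and side of the threshold, 72 were weaker and 25 stronger.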

Other observations

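Another 3 rows, picked after their values were seen, rose in the linc1329-pAS clones. Ncl, which encodes nucleolin, had 6272 to 7490 CPM against 3007 to 6369 CPM, a log2 fold change of 0.49 ± 0.12 (SE) with edgeR adjusted p = 0.00904. Npm1, the nucleophosmin gene, had 2293 to 2795 CPM against 1314 to 2797 CPM, at 0.56 ± 0.16 (SE) with adjusted p = 0.0242. Eif4a3, an exon junction complex helicase gene, had 433 to 611 CPM, above all reference clones (220 to 421 CPM), at 0.60 ± 0.12 (SE). Without the Gpr19-pAS clones none of these 3 was among the 5 rows called.

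Single clones held rows whose allele ratio was far outside that of the other groups' clones, by over 2 on the log2 scale. In linc1329-pAS clone 4 these included linc1259 with 38 and 0 counts and linc1477 with 0 and 32. In clone 3 they included Ly6f with 0 and 80 counts and Efhd1 with 30 and 0. Clones 1 to 5 had 0, 0, 6, 4 and 5 such rows besides linc1329, and the reference clones had 0 to 6.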
